A study of Mus musculus with 8 samples.

Results

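The cone phototransduction cascade was followed in isolated retinal pigment epithelium (RPE) as 10 named genes, found by symbol among the 31053 Ensembl genes of the count files, and all 10 had an entry. They were the opsins *Opn1sw* and *Opn1mw*, the transducin subunits *Gnat2*, *Gnb3* and *Gngt2*, the phosphodiesterase subunits *Pde6c* and *Pde6h*, the arrestin *Arr3* and the channel subunits *Cnga3* and *Cngb3*. RPE was taken at postnatal day 29 (P29) from 4 wild type *Bbs8*+/+ mice and 4 littermate *Bbs8*-/- knockout mice on a C57/Bl6 background, all untreated and of undetermined sex, and each mouse gave 1 library. Gene coordinates are those of GRCm38. *Bbs8* (listed as *Ttc8*) codes for a subunit of the BBSome, a complex that carries cargo in cilia. No cell type-specific driver is named for the knockout, so in the knockout eyes the photoreceptors lacked *Bbs8* as well as the RPE. The RPE was peeled as sheets from trypsin-treated eyecups after lens and retina had been removed. Libraries were made from 30 ng of RNA with a 3′ tag protocol, which reads the end of each poly-A transcript once, so levels are given without division by transcript length, as CPM (counts divided by library size, with edgeR's TMM scaling).

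Cones are the photoreceptors of daylight and colour vision and make up a small minority of photoreceptors in the mouse retina. In a cone, light isomerizes the chromophore of an opsin, the opsin activates the G protein transducin, transducin releases the inhibitory subunit from a cyclic GMP phosphodiesterase, and the drop in cyclic GMP closes a cation channel. Arrestin then ends the activity of the opsin. Rods run the same sequence of steps with their own paralogs, which allows a cone gene to be set against a rod counterpart from the same library. RPE does not run this cascade itself, but it faces the outer segments of both cell types.

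Depth and purity bear on all values. Libraries held 2389835 to 3093428 counts on genes, and 3 counts, taken as the floor of a library, corresponded to 0.970 to 1.26 CPM. *Ttc8* had 105 to 144 counts in *Bbs8*+/+ libraries and 5 to 15 in *Bbs8*-/- libraries (log2 fold change -3.34, adjusted p = 2.48e-11, edgeR's quasi-likelihood test). RPE markers were abundant, with a summed 39292 to 40341 CPM in *Bbs8*+/+ and 47461 to 51240 CPM in *Bbs8*-/- libraries over 12 genes. The higher sum came from *Ttr*, with a mean of 20970 CPM in *Bbs8*+/+ and 31805 CPM in *Bbs8*-/- libraries. It therefore does not show that *Bbs8*-/- libraries held more RPE. Of the 12 genes 2 were up-regulated and 3 down-regulated, with a median log2 fold change of -0.04. *Best1*, a chloride channel gene of RPE, had at most 5 counts in any library. Transcripts of 9 rod genes reached a summed 35367 to 37413 CPM in *Bbs8*+/+ libraries and 16005 to 16624 CPM in *Bbs8*-/- libraries. *Bbs8*+/+ library 1, the deepest of all libraries, stood apart from the other *Bbs8*+/+ libraries. The chi-square of its counts against theirs was 6.07 to 7.51 per degree of freedom, against 2.87 to 3.41 among the other 3. Among the *Bbs8*-/- libraries it was 4.17 to 5.05.

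All 10 cone genes passed the filter on low counts, and 6 of them passed an adjusted p of 0.05 as up-regulated in *Bbs8*-/- RPE (*Gnb3*, *Pde6h*, *Gngt2*, *Opn1mw*, *Opn1sw* and *Gnat2*). None was down-regulated, with 0 lower at an unadjusted p under 0.05 and 0 lower by DESeq2. Over all 12889 genes tested, 5.46% were up-regulated and 6.80% down-regulated, or 704 and 877 genes, a split that became 1008 and 654 when libraries were scaled by size alone. For the same 6 cone genes every *Bbs8*-/- library lay above every *Bbs8*+/+ library, which held for 7.42% of all tested genes. For 0 of the 10 every *Bbs8*-/- library lay below, which held for 8.64% of tested genes. The median log2 fold change of the 10 genes was 0.80, and that of all tested genes was 0.02. The summed level of the cascade went from 206 to 265 CPM in *Bbs8*+/+ libraries to 505 to 572 CPM in *Bbs8*-/- libraries. Without *Gnb3* it was 173 to 224 CPM and 299 to 342 CPM, and the genotypes still did not overlap. In bulk RNA a change in the number of cones cannot be told apart from a change in the RNA that each cone holds. Neither can be told apart from a change in the amount of retinal material left on the peeled RPE.

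**Figure D1:**
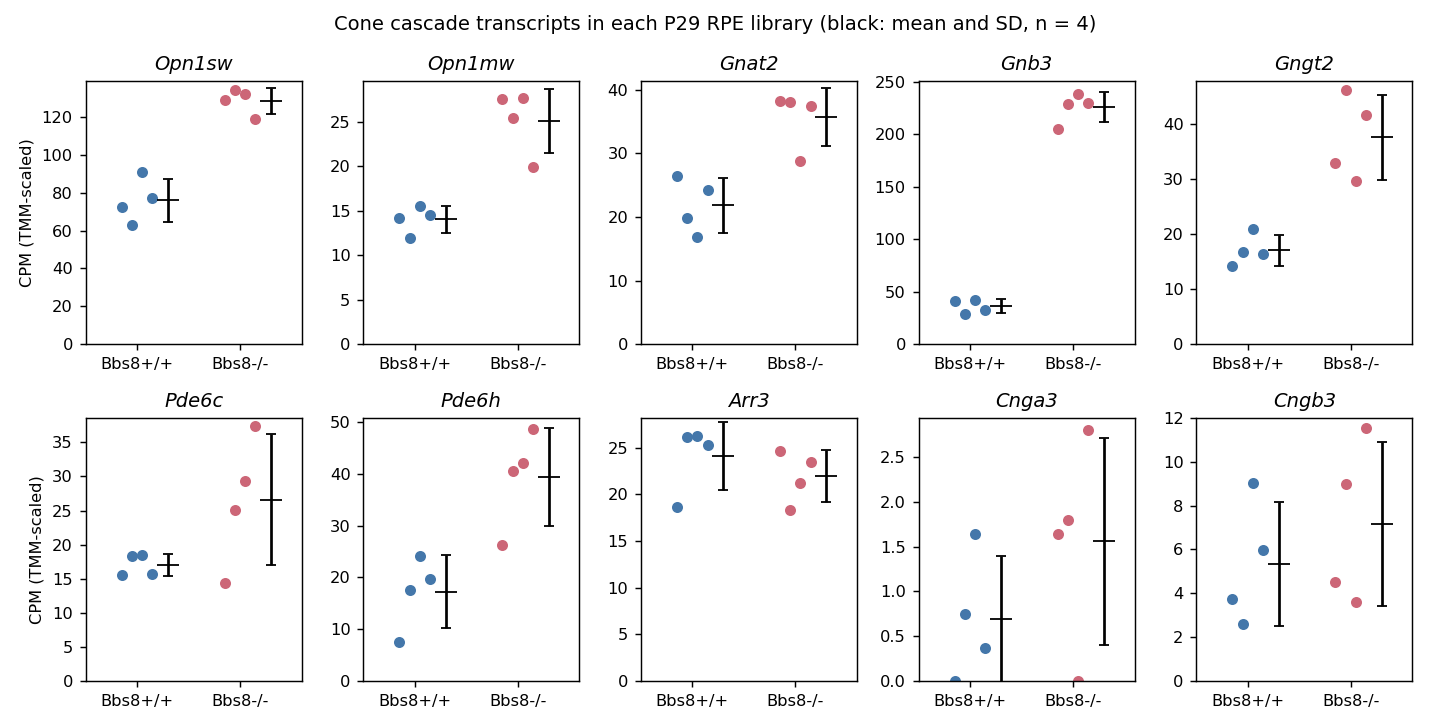
CPM (TMM-scaled, linear axes from 0, a scale of its own for each gene) of the 10 cone cascade genes in 4 *Bbs8*+/+ (blue) and 4 *Bbs8*-/- (red) libraries, in replicate order from left to right within a genotype, with mean and SD in black (cut at 0). The genotypes are separated for 6 genes, *Opn1sw*, *Opn1mw*, *Gnat2*, *Gnb3*, *Gngt2* and *Pde6h*, and overlap for *Pde6c*, *Arr3*, *Cnga3* and *Cngb3*.

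The cone opsins are the light-sensing proteins of the cascade, *Opn1sw* for short and *Opn1mw* for middle wavelengths, and most mouse cones can hold both. *Opn1sw* (ENSMUSG00000058831, chr6:29376671-29388468 on the minus strand) had 72.6, 63.1, 90.9 and 77.1 CPM in *Bbs8*+/+ libraries 1 to 4 and 129, 134, 132 and 119 CPM in *Bbs8*-/- libraries 1 to 4. Its mean rose from 75.9 ± 11.6 to 128 ± 6.85 CPM (mean ± SD, n = 4), by 0.76 on the log2 scale (standard error 0.13, edgeR's adjusted p = 3.68e-05). The lowest *Bbs8*-/- library was thus above the highest *Bbs8*+/+ library.

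*Opn1mw* (ENSMUSG00000031394, chrX:74127464-74150760 on the plus strand) had 14.2, 11.96, 15.6 and 14.5 CPM in *Bbs8*+/+ libraries and 27.6, 25.5, 27.7 and 19.95 CPM in *Bbs8*-/- libraries. Its mean rose from 14.1 ± 1.52 to 25.2 ± 3.61 CPM (mean ± SD, n = 4), by 0.84 on the log2 scale (standard error 0.26, edgeR's adjusted p = 0.0261). The call for *Opn1mw*, which rests on 32 to 71 counts per library, was lost when *Bbs8*+/+ library 2 or 4 or *Bbs8*-/- library 1, 2 or 3 was left out (adjusted p from 0.0516 to 0.0816, log2 fold change from 0.77 to 0.85). The ratio between the opsins overlapped between genotypes, as *Opn1sw* gave 5.10 to 5.84 counts per count of *Opn1mw* in *Bbs8*+/+ libraries and 4.69 to 5.95 in *Bbs8*-/- libraries. The log2 ratio of *Opn1mw* to *Opn1sw* differed by 0.06 between genotypes (two-sided exact permutation test, p = 0.600).

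The transducin genes code for the G protein that couples opsin to the phosphodiesterase. *Gnat2* (ENSMUSG00000009108, chr3:108092789-108101432 on the plus strand), the alpha subunit that binds GTP, had 26.5, 19.8, 16.8 and 24.2 CPM in *Bbs8*+/+ libraries and 38.3, 38.0, 28.9 and 37.5 CPM in *Bbs8*-/- libraries. It rose from 21.8 ± 4.34 to 35.7 ± 4.54 CPM (mean ± SD, n = 4), by 0.70 on the log2 scale (standard error 0.22, edgeR's adjusted p = 0.0297). *Bbs8*-/- library 3 was the lowest of its genotype, yet above all *Bbs8*+/+ libraries. The call for *Gnat2* was lost without *Bbs8*+/+ library 2 or 3 or without *Bbs8*-/- library 1, 2 or 4 (adjusted p from 0.0622 to 0.114, log2 fold change from 0.59 to 0.68).

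*Gnb3* (ENSMUSG00000023439, chr6:124834240-124840275 on the minus strand), the beta subunit of cone transducin, changed most of the 10 genes. It had 41.4, 28.4, 41.8 and 32.8 CPM in *Bbs8*+/+ libraries and 205, 229, 239 and 230 CPM in *Bbs8*-/- libraries. The mean rose from 36.1 ± 6.59 to 226 ± 14.4 CPM (SD, n = 4), a 6.26-fold change (95% interval 5.19 to 7.53), or 2.65 on the log2 scale (standard error 0.13, edgeR's adjusted p = 2.05e-18). Every *Bbs8*-/- library held more than 4 times the counts of every *Bbs8*+/+ library, with at least 499 against at most 122. *Gnb3* made up 13.8% to 19.3% of the cascade's counts in *Bbs8*+/+ libraries and 40.3% to 43.2% in *Bbs8*-/- libraries. Its log2 fold change stayed between 2.55 and 2.72 with each library left out in turn.

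*Gnb3* is also known from ON bipolar cells of the inner retina, and markers of bipolar and horizontal cells were not up-regulated with it. Of 9 such genes 7 were tested, 0 were up-regulated (0 also at an unadjusted p under 0.05) and 1 was down-regulated (*Prkca*). Their summed level was 259 to 291 CPM in *Bbs8*+/+ and 190 to 243 CPM in *Bbs8*-/- libraries, most of it from *Trpm1* and *Prkca*, which other cells express as well. *Grm6*, the glutamate receptor gene that defines ON bipolar cells, had 0 to 11 counts in *Bbs8*+/+ and 3 to 7 counts in *Bbs8*-/- libraries.

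*Gngt2* (ENSMUSG00000038811, chr11:95837216-95845734 on the plus strand), the gamma subunit of cone transducin, had 14.2, 16.8, 20.9 and 16.4 CPM in *Bbs8*+/+ libraries and 32.9, 46.3, 29.7 and 41.7 CPM in *Bbs8*-/- libraries. It rose from 17.1 ± 2.77 to 37.6 ± 7.68 CPM (mean ± SD, n = 4), by 1.14 on the log2 scale (standard error 0.23, edgeR's adjusted p = 4.37e-04), and the genotypes did not overlap. The 3 transducin subunits thus all rose, *Gnb3* with an interval of 2.38 to 2.91 on the log2 scale that lies above those of *Gnat2* (0.25 to 1.15) and *Gngt2* (0.67 to 1.61).

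The phosphodiesterase hydrolyses cyclic GMP. *Pde6h* (ENSMUSG00000064330, chr6:136923832-136968865 on the plus strand), its inhibitory subunit in cones, had 7.46, 17.6, 24.2 and 19.7 CPM in *Bbs8*+/+ libraries and 26.3, 40.6, 42.1 and 48.7 CPM in *Bbs8*-/- libraries. It rose from 17.2 ± 7.07 to 39.4 ± 9.40 CPM (mean ± SD, n = 4), by 1.21 on the log2 scale (standard error 0.26, edgeR's adjusted p = 0.00115). The lowest *Bbs8*-/- library lay just above the highest *Bbs8*+/+ library, and *Bbs8*+/+ library 1, which stood apart in its counts, was the lowest of all. Without that library the log2 fold change was 0.95 (adjusted p = 0.00351).

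*Pde6c* (ENSMUSG00000024992, chr19:38132781-38183958 on the plus strand), the catalytic subunit of the cone enzyme, had 15.6, 18.3, 18.4 and 15.6 CPM in *Bbs8*+/+ libraries and 14.4, 25.1, 29.3 and 37.5 CPM in *Bbs8*-/- libraries. Of the *Bbs8*-/- libraries 3 lay above all *Bbs8*+/+ libraries and 1 lay below them. The mean was 17.0 ± 1.59 CPM in *Bbs8*+/+ and 26.6 ± 9.59 CPM in *Bbs8*-/- RPE (SD, n = 4), and the log2 fold change of 0.65 (95% interval 0.11 to 1.19) did not pass the threshold (adjusted p = 0.117, unadjusted p = 0.0198). The outcome depended on *Bbs8*-/- library 1: without it the log2 fold change was 0.85 and passed (adjusted p = 0.0224).

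*Arr3* (ENSMUSG00000060890, chrX:100605497-100618493 on the plus strand), the cone arrestin that binds the activated opsin, was the only one of the 10 genes with a log2 fold change below 0. It had 18.7, 26.2, 26.2 and 25.3 CPM in *Bbs8*+/+ libraries and 24.7, 18.3, 21.2 and 23.5 CPM in *Bbs8*-/- libraries. The genotypes overlapped, with means of 24.1 ± 3.64 and 21.9 ± 2.80 CPM (SD, n = 4) and a log2 fold change of -0.13 (95% interval -0.62 to 0.35, adjusted p = 0.808). A rise of the size seen for *Opn1sw* (0.76) lies outside this interval, which was reached with 51 to 70 counts per library.

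The cone channel is built from *Cnga3*, the main subunit, and *Cngb3*, the modulatory subunit, and neither gave a difference that was detectable at this depth. *Cnga3* (ENSMUSG00000026114, chr1:37214434-37263384 on the plus strand) had 0, 2, 4 and 1 counts in *Bbs8*+/+ libraries and 4, 5, 0 and 8 in *Bbs8*-/- libraries. It was above the floor in 1 *Bbs8*+/+ and 3 *Bbs8*-/- libraries, and only these 4 libraries carried it past the filter. Its log2 fold change had an interval from -1.13 to 3.48 (adjusted p = 0.596). *Cngb3* (ENSMUSG00000056494, chr4:19280850-19510623 on the plus strand) had 11, 7, 22 and 16 counts in *Bbs8*+/+ and 11, 25, 9 and 33 counts in *Bbs8*-/- libraries, all above the floor. The mean was 5.33 ± 2.82 CPM in *Bbs8*+/+ and 7.16 ± 3.75 CPM in *Bbs8*-/- RPE (SD, n = 4), with overlapping libraries and a log2 fold change of 0.44 (95% interval -0.57 to 1.46, adjusted p = 0.667).

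Promoter sequence was held for 6 of the 10 genes in the RefSeq table of GRCm38.p6 (*Arr3*, *Cnga3*, *Gnat2*, *Opn1mw*, *Opn1sw* and *Pde6h*). The 250 bases before the RefSeq transcript start of both opsin genes, of *Gnat2* and of *Arr3* are shown, a choice made after their values were seen. The first 3 rose and *Arr3* did not, while *Pde6h*, which rose as well, is not shown. Whether these sequences bear on the changes was not tested. Capitals mark matches, on either strand, to TAATCC (bound by CRX and OTX factors), AGGTCA (a nuclear receptor half-site) or TGCTGA (an NRL half-site). The windows are chr6:29380514-29380763 (minus strand) for *Opn1sw*, chrX:74127216-74127465 (plus strand) for *Opn1mw*, chr3:108092816-108093065 (plus strand) for *Gnat2* and chrX:100605247-100605496 (plus strand) for *Arr3*. RefSeq starts differ from the gene starts given above, which include every annotated transcript, so that the windows of *Opn1sw* and *Gnat2* lie within those longer gene spans and that of *Opn1mw* ends just inside its own.
*Opn1sw*: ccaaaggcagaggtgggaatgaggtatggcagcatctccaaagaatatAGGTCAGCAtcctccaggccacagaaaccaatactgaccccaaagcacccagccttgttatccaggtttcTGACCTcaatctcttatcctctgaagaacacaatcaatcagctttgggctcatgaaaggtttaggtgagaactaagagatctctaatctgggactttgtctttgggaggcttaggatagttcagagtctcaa
*Opn1mw*: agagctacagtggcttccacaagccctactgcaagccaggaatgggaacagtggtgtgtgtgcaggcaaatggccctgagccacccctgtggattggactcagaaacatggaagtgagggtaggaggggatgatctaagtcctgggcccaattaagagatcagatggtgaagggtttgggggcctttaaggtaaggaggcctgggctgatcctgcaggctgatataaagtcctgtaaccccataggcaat
*Gnat2*: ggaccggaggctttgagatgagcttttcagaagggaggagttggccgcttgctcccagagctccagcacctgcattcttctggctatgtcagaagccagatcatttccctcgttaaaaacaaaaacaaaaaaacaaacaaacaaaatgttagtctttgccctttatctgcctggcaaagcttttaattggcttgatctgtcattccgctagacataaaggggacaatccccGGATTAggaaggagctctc
*Arr3*: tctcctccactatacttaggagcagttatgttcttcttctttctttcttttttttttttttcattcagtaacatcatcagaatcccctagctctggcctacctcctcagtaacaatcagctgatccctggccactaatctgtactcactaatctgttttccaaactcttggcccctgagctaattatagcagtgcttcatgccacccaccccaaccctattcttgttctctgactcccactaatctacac
TAATCC was present once among these 4 windows, as GGATTA 19 bases before the start of *Gnat2*, and 6.25% of the 32851 promoter windows in the table hold it. *Opn1sw* held AGGTCA at 202 bases and its reverse complement at 132 bases before the start, letters found in 14.0% of all windows. The first of these overlaps a reverse match to TGCTGA at 199 bases, which 16.1% of all windows hold. No match to the 3 motifs was present in the windows of *Opn1mw* and *Arr3*, nor in those of *Pde6h* and *Cnga3*.

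The rod counterparts moved the other way in the same libraries. Of the 9 rod genes examined, 8 were down-regulated and 0 up-regulated (0 also at an unadjusted p under 0.05 and 0 by DESeq2, which gave the same counts for each list named here), with a median log2 fold change of -1.33. *Gnat1* and *Gnb1*, the alpha and beta subunits of rod transducin, changed by -1.47 and -1.27 on the log2 scale, *Pde6a* and *Pde6b*, the catalytic subunits of the rod enzyme, by -1.33 and -1.43, and *Pde6g*, its inhibitory subunit, by -1.39. The channel subunits *Cnga1* and *Cngb1* changed by -1.05 and -1.39, and *Sag*, the rod arrestin, by -0.77.

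*Gngt1*, the gamma subunit of rod transducin, was the exception at -0.14 (95% interval -0.44 to 0.15, adjusted p = 0.609). It had 434 CPM in *Bbs8*+/+ library 1 and 920 to 1157 CPM in the other *Bbs8*+/+ libraries, against 685 to 951 CPM in *Bbs8*-/- libraries. Without *Bbs8*+/+ library 1 it was down-regulated (log2 fold change -0.37, adjusted p = 2.23e-04), and without library 3 the value was 0.026 (adjusted p = 0.947).

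**Figure D2:**
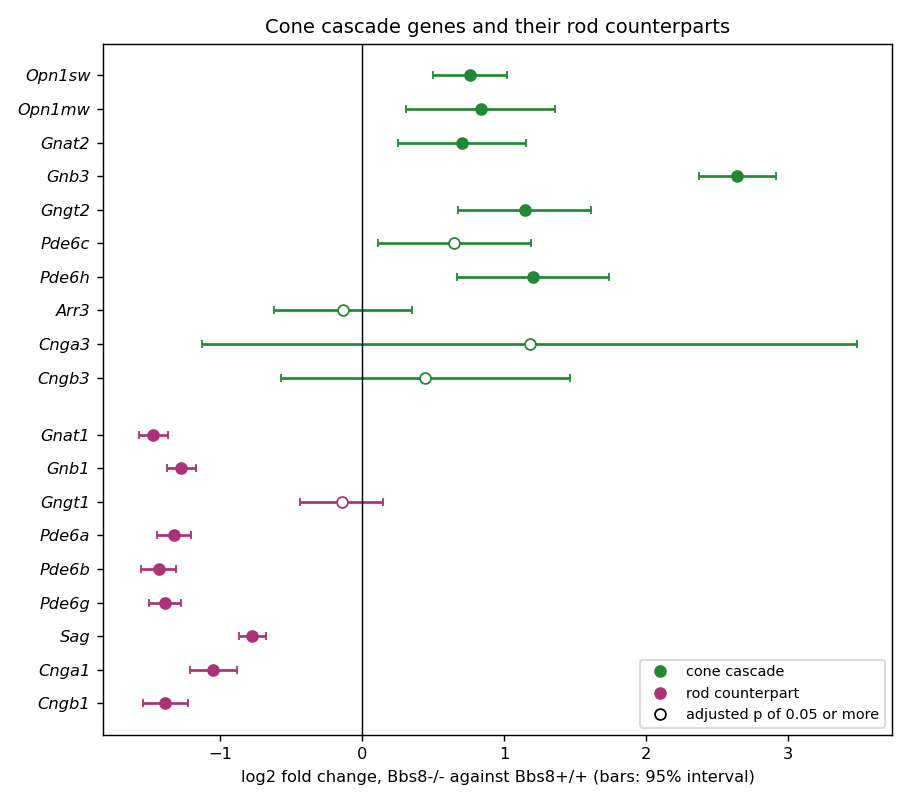
Log2 fold change of *Bbs8*-/- against *Bbs8*+/+ RPE (horizontal axis) with its 95% interval from edgeR for the 10 cone cascade genes (green) and 9 rod counterparts (purple), where open circles did not pass an adjusted p of 0.05. *Gnb3* stands at 2.65, the other up-regulated cone genes between 0.70 and 1.21, and the rod genes between -1.47 and -0.14.

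The 8 cone genes other than the opsins were then set against their rod counterparts within a library, which removes the scaling between libraries. In *Bbs8*+/+ libraries 5.73 to 7.48 counts of the cone cascade were present per 1000 counts of the 9 rod genes, and in *Bbs8*-/- libraries 30.4 to 35.5. *Gnb3* alone gave 13.8% to 19.3% of these cone counts in *Bbs8*+/+ and 40.3% to 43.2% in *Bbs8*-/- libraries. Of 9 pairs, 8 had a higher cone to rod ratio in every *Bbs8*-/- library than in any *Bbs8*+/+ library. By an exact, two-sided permutation test p = 0.0286 for each, the smallest that 4 libraries against 4 allow, and adjusted p = 0.0321 over the 9 pairs. *Pde6c* entered against both *Pde6a* and *Pde6b*, so these are not 8 different cone genes. A pair can separate through the fall of the rod gene alone, and the share of all genes that would separate in this way was not computed. The log2 ratio of *Gnat2* to *Gnat1* was -8.64 ± 0.24 in *Bbs8*+/+ and -6.45 ± 0.19 in *Bbs8*-/- libraries (SD, n = 4), 4.56-fold higher. When single libraries were left out these 8 pairs stayed separated and 6 to 8 of them passed the threshold, except without *Bbs8*+/+ library 1, where 0 passed (adjusted p from 0.0514 to 0.0643, with 5 at an unadjusted p under 0.05).

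The shift was widest for the transducin beta subunits, where the ratio of *Gnb3* to *Gnb1* was 15.2-fold higher, and narrowest for the arrestins, where *Arr3* to *Sag* was 1.56-fold higher (log2 difference 0.64). *Gngt2* to *Gngt1* was 2.29-fold higher, with *Bbs8*+/+ library 1 next to the *Bbs8*-/- libraries. *Pde6h* to *Pde6g* was 6.32-fold higher, *Pde6c* to *Pde6a* 3.71-fold higher and *Pde6c* to *Pde6b* 3.99-fold higher. For *Pde6c*, *Arr3* and *Cngb3* the ratio was higher although none of these genes passed the threshold itself, and their rod counterparts were down-regulated. Such a ratio can rise through the rod gene alone. How often other genes would separate against the same rod genes was not tested. *Cngb3* to *Cngb1* was 3.47-fold higher, with *Bbs8*+/+ library 3 (log2 ratio -6.49) next to *Bbs8*-/- library 3 (-6.40). With single libraries left out, this pair fell short of the threshold in 6 runs and *Gngt2* to *Gngt1* in 5. For *Cnga3* to *Cnga1* the genotypes overlapped (two-sided exact permutation test, p = 0.143).

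**Figure D3:**
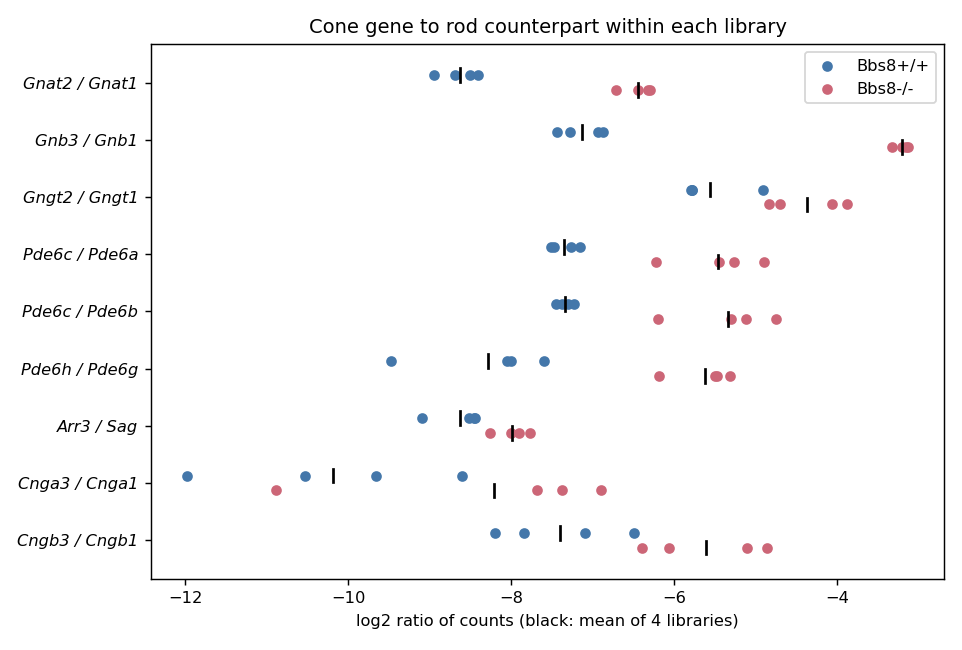
Log2 ratio of the counts of a cone gene to those of its rod counterpart in each library (horizontal axis) for 9 pairs, with *Bbs8*+/+ libraries in blue, *Bbs8*-/- libraries in red and the mean of 4 libraries as a black bar. The red points lie to the right of the blue points for 8 pairs, and the points overlap for *Cnga3* to *Cnga1*.

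Cone genes were also compared with each other. Relative to *Opn1sw* in the same library, a comparison chosen after the values had been seen, *Gnb3* was 3.70-fold higher in *Bbs8*-/- libraries, with log2 ratios of -1.23 to -0.81 in *Bbs8*+/+ and 0.67 to 0.96 in *Bbs8*-/- libraries. *Arr3* relative to *Opn1sw* was lower in *Bbs8*-/- libraries, at -2.86 to -2.33 against -1.95 to -1.27, a log2 difference of -0.90. For both the genotypes did not overlap (two-sided exact permutation test, p = 0.0286), and over the 9 ratios compared the adjusted p was 0.129, so that neither passed the threshold. For the other 7 genes the ratio to *Opn1sw* overlapped between genotypes, with log2 differences from -0.36 for *Cngb3* to 0.50 for *Pde6h*.

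**Figure D4:**
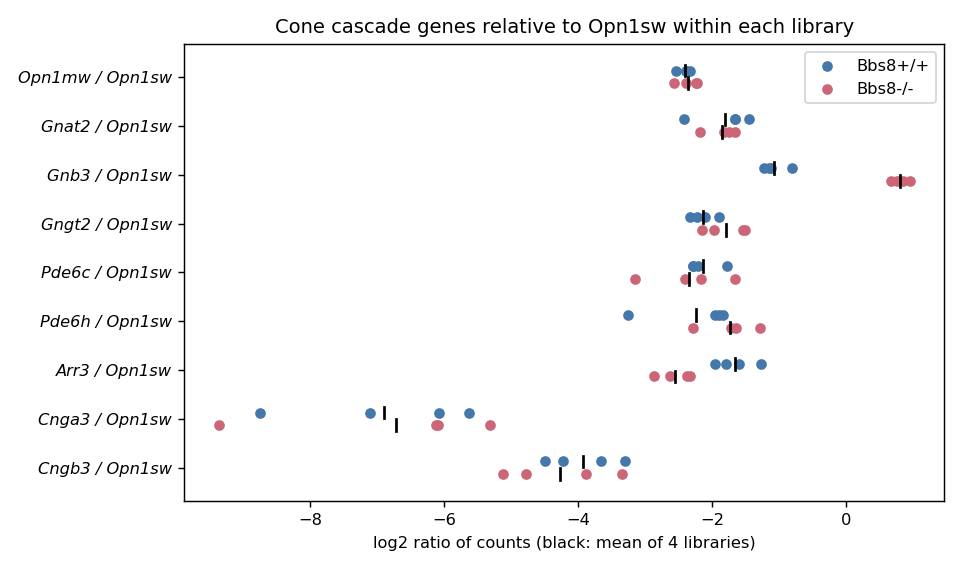
Log2 ratio of the counts of each of 9 cone cascade genes to those of *Opn1sw* in each library (horizontal axis), with *Bbs8*+/+ libraries in blue, *Bbs8*-/- libraries in red and the mean of 4 libraries as a black bar. The red points of *Gnb3* lie to the right of the blue points, those of *Arr3* to the left, and those of the other 7 genes among them.

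Genes of recovery and calcium feedback, most of which rods and cones share, were mostly down-regulated, as the rod genes were. Of 13 such genes, 11 were down-regulated and 0 up-regulated (0 also at an unadjusted p under 0.05), with a median log2 fold change of -1.08. *Grk1*, the opsin kinase that rods and cones share in the mouse, fell by 1.16 on the log2 scale (adjusted p = 1.11e-14). *Rgs9*, *Rgs9bp* and *Gnb5*, which speed the shut-off of transducin, changed by -0.48, -1.26 and -1.11. *Guca1a* and *Guca1b*, the calcium sensors of guanylate cyclase, changed by -0.996 and -1.30, and the cyclases *Gucy2e* and *Gucy2f* by -1.08 and -1.13. *Rcvrn*, a calcium sensor that acts on the kinase, *Slc24a1*, the exchanger of rods, and *Kcnv2*, a potassium channel subunit, changed by -0.93, -0.82 and -1.21. The remaining 2 were *Pde6d* (-0.18, adjusted p = 0.696) and *Slc24a2*, another exchanger gene, which had 2 to 4 counts in *Bbs8*+/+ libraries and 0 to 22 counts in *Bbs8*-/- libraries.

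Cone-enriched genes outside the cascade gave no call. Of 5 such genes 4 were tested, 0 were up-regulated (0 also at an unadjusted p under 0.05) and 0 down-regulated (1 at an unadjusted p under 0.05). These genes are named here after their values were seen. *Thrb*, a thyroid hormone receptor gene that cones need for *Opn1mw* and that other cells express too, changed by -0.29 (adjusted p = 0.197) and *Ccdc136* by 0.14 (adjusted p = 0.748). *Rxrg*, a retinoid receptor gene of cones, had 4 to 15 counts in *Bbs8*+/+ and 6 to 31 counts in *Bbs8*-/- libraries (log2 fold change 0.78, adjusted p = 0.457). *Kcne2* changed by 1.08 (adjusted p = 0.385) on at most 23 counts, and *Otop3*, with at most 4 counts, did not pass the filter.

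Outside these lists, *Prodh*, *Fndc4*, *Fam69b* and *Ldb1* were among the 5 tested genes whose levels over the 8 libraries lay nearest to the mean profile of the cone cascade, with log2 fold changes from 0.84 to 0.98. The measure was the Euclidean distance between centred log2 CPM profiles (0.31 to 0.43), and of these 4 all but *Fam69b* (adjusted p = 0.0613) were past the threshold. The distance was taken over the same libraries, so fold changes like those of the cone genes follow from the choice.

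Markers of other tissues moved with genotype in these libraries as well. All 16 lens genes and 5 of 7 erythrocyte genes were down-regulated, and 3 of 8 genes of Müller glia, the supporting glia of the retina, were up-regulated. Their summed levels, in *Bbs8*+/+ and then *Bbs8*-/- libraries, were 3761 to 3997 and 636 to 714 CPM for lens, 5172 to 5731 and 1990 to 2226 CPM for erythrocytes, and 6678 to 7105 and 9234 to 9779 CPM for Müller glia, the last mostly from *Clu* and *Glul*. Log2 fold changes on the Müller list ran from -0.05 to 1.93. Which cells in these RPE libraries gave the *Clu* and *Glul* transcripts was not tested. No marker on the lens, erythrocyte and Müller lists was at or below the floor in every library. The part of these differences in the values of the cone genes was not tested. Of the cone genes 3 share exon bases with a gene on the opposite strand (*Opn1sw* with *Calu*, *Pde6h* with *Arhgdib* and *Gngt2* with *Abi3*), and the strand setting of the counting is not given in the sources used here. *Calu* had 152 to 207 counts in *Bbs8*+/+ and 188 to 229 counts in *Bbs8*-/- libraries, *Arhgdib* at most 24 and *Abi3* at most 10 in any library.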

How the data were processed

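RNA of isolated RPE was sequenced in 8 QuantSeq 3′ libraries of single-end 100 bp reads. Reads were trimmed with BBDuk, aligned with STAR to mm10 (Ensembl release 93) and counted per gene with htseq-count, and the authors deposited the counts of uniquely mapped reads without normalization. Htseq-count's rows for reads on no gene, on several genes or mapped to several places were left out (17.0% to 20.6%, 0.244% to 0.296% and 32.8% to 34.5% of a library). Symbols and coordinates came from GRCm38 tables, with 30934 of 31053 identifiers named. Libraries were grouped by their titles.

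Genes that reached 1 CPM in 4 or more libraries were tested with edgeR 4.0.16 in R 4.3.3 (TMM, quasi-likelihood F test, two-sided, Benjamini-Hochberg over all tested genes, threshold 0.05), and standard errors were derived from the F statistic. This filter replaces that of the study, which also needs the alignments. Ratios were taken as log2 of counts plus 0.5 and compared by exact permutation over libraries. The floor of 3 counts (0.970 to 1.26 CPM) allows for counting error alone. The code was tested on simulated data.

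The genes named were the cone and rod lists, *Ttc8*, the called genes of the recovery and other cone lists, the 2 most abundant genes of each other list and the 5 genes of nearest profile. *Best1*, *Grm6* and genes of the recovery and other cone lists without a call were named after their values were seen. The members, lists and motifs were chosen with earlier results of these data known. A few genes covered by these lists and rules are not reported here. Alternatives were DESeq2 1.42.0, other scalings and filters, a replicate block, a stricter threshold, another pseudocount and each library left out.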

Additional observations from a re-analysis of the deposited data

Results flagged for a closer look

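Among 76 groups of 4 libraries examined, 8 held a library that stood far from the other 3, where chance flags about 1 in 20. The value given is the gap to the nearest library as a share of the group's range. *Gnat2* in *Bbs8*-/- library 3 was lowest (0.915), *Gnat1* in *Bbs8*-/- library 1 was highest (0.844), and the ratio of *Pde6c* to *Opn1sw* in *Bbs8*+/+ library 2 was highest (0.836). The other 5 were all *Bbs8*+/+ library 1, which was lowest for *Arr3* (0.882), highest for *Sag* (0.842), lowest for *Arr3* to *Sag* (0.886), highest for *Gngt2* to *Gngt1* (0.980) and lowest for *Pde6h* to *Opn1sw* (0.915). Without *Bbs8*+/+ library 1 the log2 fold change of *Arr3* was -0.24, and the number of up-regulated cone genes was 6.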

How the results depend on the processing

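The number of up-regulated cone genes was 6 under DESeq2, under each other scaling and filter and with the replicate block, 4 at an adjusted p of 0.01, and 4 to 6 with each library left out in turn, and 0 were down-regulated under all of these. At an adjusted p of 0.01 *Opn1mw* and *Gnat2* were not called, and the other calls on single genes changed only when a library was left out, which leaves fewer samples. The log2 fold change then ranged from 0.77 to 0.93 for *Opn1mw*, from 0.59 to 0.81 for *Gnat2* and from 0.44 to 0.85 for *Pde6c*, and that of *Gngt1* was -0.37 without *Bbs8*+/+ library 1 and 0.026 without library 3. The cause was not tested. *Arr3* stayed below 0 under every alternative run. The 5 CPM filter removed *Cnga3*, and DESeq2 gave it no adjusted p. With each library left out, a test added after seeing the data, 6 to 8 of the 9 cone to rod pairs passed the threshold, except that 0 did without *Bbs8*+/+ library 1. The log2 differences then ranged from 2.09 to 2.28 for *Gnat2* to *Gnat1*, 3.83 to 4.02 for *Gnb3* to *Gnb1*, 1.03 to 1.41 for *Gngt2* to *Gngt1*, 1.71 to 2.14 for *Pde6c* to *Pde6a*, 1.80 to 2.28 for *Pde6c* to *Pde6b*, 2.26 to 2.89 for *Pde6h* to *Pde6g*, 0.49 to 0.73 for *Arr3* to *Sag* and 1.53 to 2.10 for *Cngb3* to *Cngb1*. A pseudocount of 1 count left 8 pairs past the threshold, and 0 ratios to *Opn1sw* passed it under these alternatives, which were chosen for them after seeing the data (2 had an unadjusted p of 0.0286). Same-numbered libraries of the genotypes did not deviate together (correlations from -0.0564 to 0.00527 over 8436 genes), and with the replicate block 650 genes were up- and 827 down-regulated over all genes, against 704 and 877 without it. No paired analysis was run for the ratios, where 4 pairs cannot pass 0.05. Depth limits *Cnga3* and *Cngb3*, with means of 3.00 and 16.8 counts per library.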

Other observations

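Other marker lists gave the following values. Of 7 photoreceptor fate factors 4 were down-regulated and 1 up-regulated (median -0.86 on the log2 scale), and the most abundant were *Nrl*, a rod factor (-1.58), and *Otx2* (0.30), which RPE expresses too. Of 11 genes of outer segment structure 9 were down-regulated and 0 up-regulated (0 also at an unadjusted p under 0.05, median -0.97). Of 12 RPE genes 2 were up-regulated and 3 down-regulated (median -0.04), and the most abundant were *Ttr* (0.60) and *Rgr* (-0.01). Of 8 amacrine and ganglion cell genes 6 were tested and of 8 microglia and macrophage genes 7, and edgeR and DESeq2 called 0 in either list, where 1 gene in each passed an unadjusted p of 0.05 in edgeR. DESeq2 gave the same counts for the lists above.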
